A study of Mus musculus with 14 samples.

Results

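The TaqMan assays mmu-miR-126-3p, mmu-miR-126-5p, mmu-miR-10a and mmu-miR-10b, written below without the species prefix, were examined in mouse heart transplants. These 4 assays, out of 375 microRNA assays on each card, were taken by the name of their detector in both deposited tables. The series held 14 arrays, each made from RNA of 3 pooled animals, with 7 whole hearts in the first deposited table and 7 leukocyte preparations in the second. The 3 allogeneic heart arrays were BALB/c hearts placed in C57BL/6 recipients, taken at day 7 and labelled as rejected, and the 3 syngeneic heart arrays were C57BL/6 hearts in C57BL/6 recipients at day 7. The normal heart array came from BALB/c mice. Lymphocytes that had infiltrated the grafts (GIL) gave 3 allogeneic and 3 syngeneic arrays at day 5 from the same 2 donor and recipient combinations. The lone blood cell (PBMC) array came from normal C57BL/6 mice. Mice were 8 to 10 weeks old, and the grafts were heterotopic, so the recipient kept its own heart. The strain of the transplanted heart changed with the group and cannot be told apart from rejection in the allogeneic against syngeneic comparisons. Syngeneic hearts also differed in strain from the normal heart, so strain cannot be told apart from transplantation in that comparison. The n given below counts pools. Nothing in the labels says how pools of a group differ, so p-values measure the spread between these pools, not between animals.

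miR-126 is processed from an intron of Egfl7, a gene of blood vessel endothelium, and both arms of its hairpin give a mature microRNA. In endothelial cells the 3p arm represses Spred1 and Pik3r2, which restrain signalling downstream of the vascular growth factor VEGF, and in human endothelial cells it also represses the leukocyte adhesion molecule VCAM-1. The 5p arm represses Dlk1, a Notch ligand relative that holds back endothelial proliferation. miR-126 is also found in platelets and in haematopoietic stem cells. miR-10a and miR-10b are transcribed from within the Hox gene clusters. miR-10a restrains NF-kappaB signalling in human endothelial cells and is abundant in regulatory T cells of the mouse, and miR-10b promotes vessel sprouting in zebrafish.

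The mature sequences below show what sets the members apart, with the seed (bases 2 to 8) in capitals. They are RefSeq entries on GRCm38.p6, and 3 of the 4 assays matched one by name.
mmu-miR-126a-3p: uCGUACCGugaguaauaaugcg
mmu-miR-10a-5p: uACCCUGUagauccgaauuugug
mmu-miR-10b-5p: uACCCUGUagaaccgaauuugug
mmu-miR-99a-5p: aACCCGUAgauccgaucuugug
mmu-miR-99b-5p: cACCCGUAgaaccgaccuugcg
mmu-miR-100-5p: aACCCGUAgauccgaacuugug
miR-10a-5p and miR-10b-5p share the seed ACCCUGU, which no other entry of that table carried. They are 23 bases long and differ by 1 substitution, U12A, with the miR-10a base first and positions counted from 1 at the 5′ end. Whether each assay also reads the other paralogue was not tested. The related miR-99a, miR-99b and miR-100 are shown because they serve as the family comparison below, and they carry the seed ACCCGUA. The seed of miR-126a-3p, CGUACCG, was held by 1 entry. The Mir126a hairpin (chr2:26591357-26591429, plus strand) lies within Egfl7 and is printed with its 3p arm in capitals, to show that this arm and the 5p arm before it come from 1 precursor.
Mir126a: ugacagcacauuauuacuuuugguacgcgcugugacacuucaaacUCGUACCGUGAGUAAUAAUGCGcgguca
Mir10a (chr11:96317165-96317274, plus strand) lies within the span of Hoxb3, 993 bases from Hoxb4. Mir10b (chr2:74726070-74726137, plus strand) lies within the spans of Hoxd3 and Hoxd4.

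All 4 assays gave a signal on all 7 heart arrays. Levels are on a log2 scale, as the mean Ct (threshold cycle, lower for more RNA) of 210 reference microRNA assays in the heart table, or 137 in the leukocyte table, minus the Ct of the assay, so 1 unit is 1 cycle. A level is comparable between arrays of a table for the same assay, but not between assays, whose efficiencies differ. The heart arrays had 228 to 260 assays detected before Ct 35 and reference assays averaging Ct 22.4 to 23.9. On the arrays of GIL and PBMC, 161 to 221 were detected and the reference assays averaged Ct 23.2 to 28.0. Allogeneic GIL pool 3, with 161 assays detected and the reference at Ct 28.0, stood apart from the rest. Cardiomyocyte markers (6 of 6) were detected in each heart group, and the leukocyte markers miR-142-3p, miR-223 and miR-150 in each GIL group and in PBMC.

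Both arms of miR-126 fell in allogeneic hearts relative to syngeneic hearts. The miR-126-3p level was 7.22, 6.53 and 7.01 in the 3 allogeneic hearts, 8.42, 8.38 and 8.86 in the 3 syngeneic hearts and 9.89 in the normal heart. The 3 groups did not overlap, with every allogeneic pool below every syngeneic pool and the normal heart above both. The level averaged 6.92 ± 0.35 in allogeneic and 8.56 ± 0.27 in syngeneic hearts (SD, n = 3 each), a 3.11-fold fall (log2 fold change -1.64 ± 0.27 SE, limma adjusted p = 0.00638). The miR-126-5p level was 4.22, 4.12 and 4.10 in allogeneic hearts, 5.43, 5.38 and 5.54 in syngeneic hearts and 6.56 in the normal heart. Its pools lay close together within each group, at 4.15 ± 0.065 in allogeneic and 5.45 ± 0.085 in syngeneic hearts (SD, n = 3 each). The difference was a 2.47-fold fall (-1.30 ± 0.20 SE, adjusted p = 0.00457). Of the 4 members, 2 fell and 1 rose, and 3 had groups that did not overlap. Of the 238 assays tested in this comparison, 15.1% fell, 17.2% rose and 54.2% had groups that did not overlap, and the median log2 fold change of all was 0.022. In bulk RNA, fewer endothelial cells and less miR-126 per cell cannot be told apart.

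**Figure D1:**
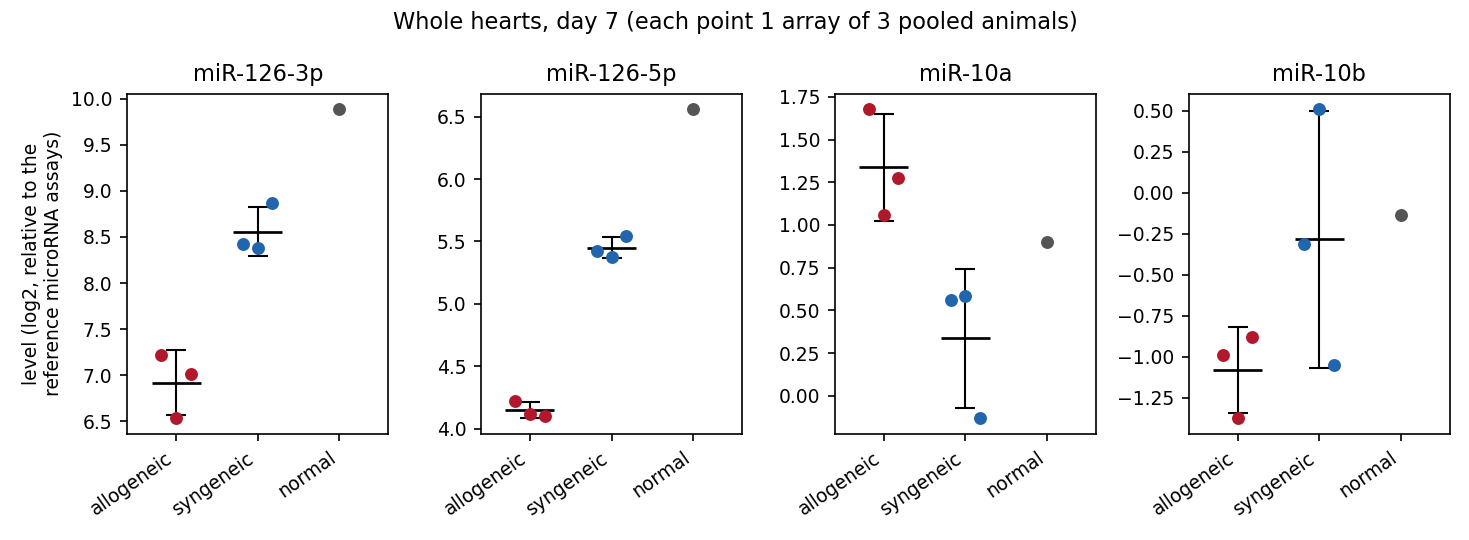
Level of each assay (log2, relative to the mean of the reference microRNA assays) on the heart arrays, with allogeneic, syngeneic and normal hearts from left to right. Each point is 1 array, bars give the mean and SD of 3 pools, and each panel has its own axis. The miR-126 arms separate the 3 groups without overlap, from 4.10 to 4.22 in allogeneic against 5.38 to 5.54 in syngeneic hearts for miR-126-5p.

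The fall in allogeneic hearts stood beside changes of other cell type markers. Of 6 cardiomyocyte markers, 5 fell, among them miR-133a (-1.67 ± 0.26 SE, adjusted p = 0.00457) and miR-1 (-1.53 ± 0.29, adjusted p = 0.01), and miR-499 was at -0.74 (adjusted p = 0.0587). The summed level of the cardiomyocyte list was 9.13 to 9.47 in allogeneic, 10.5 to 11.3 in syngeneic and 12.2 in normal hearts. The smooth muscle microRNA miR-145 fell (-1.03 ± 0.24, adjusted p = 0.0214), and miR-143 was at -0.47 (adjusted p = 0.196). The fibroblast markers miR-199a-3p (-1.94) and miR-214 (-1.85) fell, 2 of the 2 tested. The leukocyte microRNA miR-142-3p rose (1.64 ± 0.25, adjusted p = 0.00457), and of the erythroid pair miR-451 rose (3.99 ± 0.71, adjusted p = 0.00797) and miR-486 was at -0.16 (adjusted p = 0.608). The myeloid miR-223 was at 0.96 (adjusted p = 0.149) and the lymphocyte miR-150 at -0.49 (adjusted p = 0.124). The part of these markers in the fall of miR-126 was not tested. Run days within the heart table allowed 2 comparisons between arrays of 1 day. The difference of allogeneic pool 1 minus syngeneic pool 1 was -1.21 for miR-126-3p and -1.21 for miR-126-5p, and that of allogeneic pool 3 minus syngeneic pool 2 was -1.37 for miR-126-3p and -1.28 for miR-126-5p. With run day as a fixed block, which left 1 residual degree of freedom, both arms kept their sign but not their call (-1.29 for the 3p and -1.24 for the 5p arm, adjusted p = 0.0769 for each). Scaled to the small nuclear RNA control MammU6, the miR-126-5p difference was -1.42 with an adjusted p of 0.0987.

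Against the normal heart, which shares the BALB/c strain with the allogeneic grafts, both arms were lower in allogeneic hearts. miR-126-3p was 7.83-fold lower (-2.97 ± 0.39 SE, adjusted p = 0.00133) and miR-126-5p 5.34-fold lower (-2.42 ± 0.28, adjusted p = 8.6e-04), in a comparison in which 25.7% of 241 assays fell. Syngeneic hearts lay between, with miR-126-5p 2.16-fold lower than in the normal heart (-1.11 ± 0.27, adjusted p = 0.032), where 7.44% of 242 assays fell. miR-126-3p was at -1.33 ± 0.39 in that comparison and missed the threshold (adjusted p = 0.0564). The size depended on the scaling. Over 17 alternatives each, the fold change in allogeneic hearts ran from -3.17 to -1.69 for miR-126-3p and from -2.62 to -1.82 for miR-126-5p, all called. In syngeneic hearts it ran from -1.47 to -0.24 for miR-126-3p and from -1.18 to -0.67 for miR-126-5p. Quantile scaling gave the smallest miR-126-3p values, -1.69 in allogeneic (adjusted p = 0.00586) and -0.24 in syngeneic hearts (adjusted p = 0.54). Both comparisons rest on 1 normal array, assumed to vary like the transplant pools and run on a day of its own. The syngeneic hearts also differed from the normal heart in strain, so strain and transplantation cannot be told apart there. The fall of miR-126-5p in syngeneic hearts was called in 7 of 17 alternative settings and in none of the 5 other scalings. In the authors' deposited table, scaled to snoRNA202 with the normal heart set to 1, the relative quantity of miR-126-3p was 0.189, 0.147 and 0.258 in allogeneic hearts and 0.535, 0.448 and 0.652 in syngeneic hearts. In the same authors' deposited table, that of miR-126-5p was 0.238, 0.276 and 0.343 in allogeneic and 0.672, 0.56 and 0.655 in syngeneic hearts.

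In the infiltrating cells the arms of miR-126 were measured on all 7 arrays, and only the 3p arm was called in the comparison between grafts. The miR-126-3p level was 5.10, 5.15 and 4.37 in allogeneic GIL, 5.70, 5.81 and 6.32 in syngeneic GIL and 0.085 in PBMC. The allogeneic and syngeneic pools did not overlap, as was the case for 57.7% of the 201 assays tested. The level fell 2.10-fold in allogeneic GIL (-1.07 ± 0.32 SE, adjusted p = 0.0478), and it was the single call among the 3 members tested, where 23.9% of assays fell, 12.4% rose and the median of all was -0.24. The call did not hold when any 1 of the 6 pools was left out, with values from -1.20 to -0.72 and adjusted p from 0.0664 to 0.175. Without allogeneic GIL pool 3 the value was -0.72 (adjusted p = 0.109), and without syngeneic GIL pool 3 it was -0.80 (adjusted p = 0.175). It also did not hold under any of 5 other scalings, among them -0.18 with snoRNA202 (adjusted p = 0.834), a scaling that moved the median of all assays by 0.89.

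The miR-126-5p level was 2.15, 2.12 and 1.44 in allogeneic GIL, 1.77, 2.19 and 2.46 in syngeneic GIL and -2.69 in PBMC. Here allogeneic and syngeneic pools overlapped, and the log2 fold change was -0.24 ± 0.32 (95% interval -1.01 to 0.54, adjusted p = 0.583). Its sign turned under 4 of the 5 other scalings (0.062 to 0.65), without allogeneic GIL pool 3 (0.092) and without syngeneic GIL pool 3 (0.0034). In the GIL table each run day held arrays of 1 group, and the syngeneic GIL arrays shared 1 day. Run day therefore cannot be told apart from group in any comparison of allogeneic with syngeneic GIL. A fit with run day as a random block could not separate them either, and it gave -1.07 for miR-126-3p (limma adjusted p = 0.046). In the authors' deposited table the relative quantities, with PBMC set to 1, overlapped between the groups for miR-126-3p, at 69.1, 134 and 39 in allogeneic GIL and 63.8, 66.7 and 122 in syngeneic GIL.

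**Figure D2:**
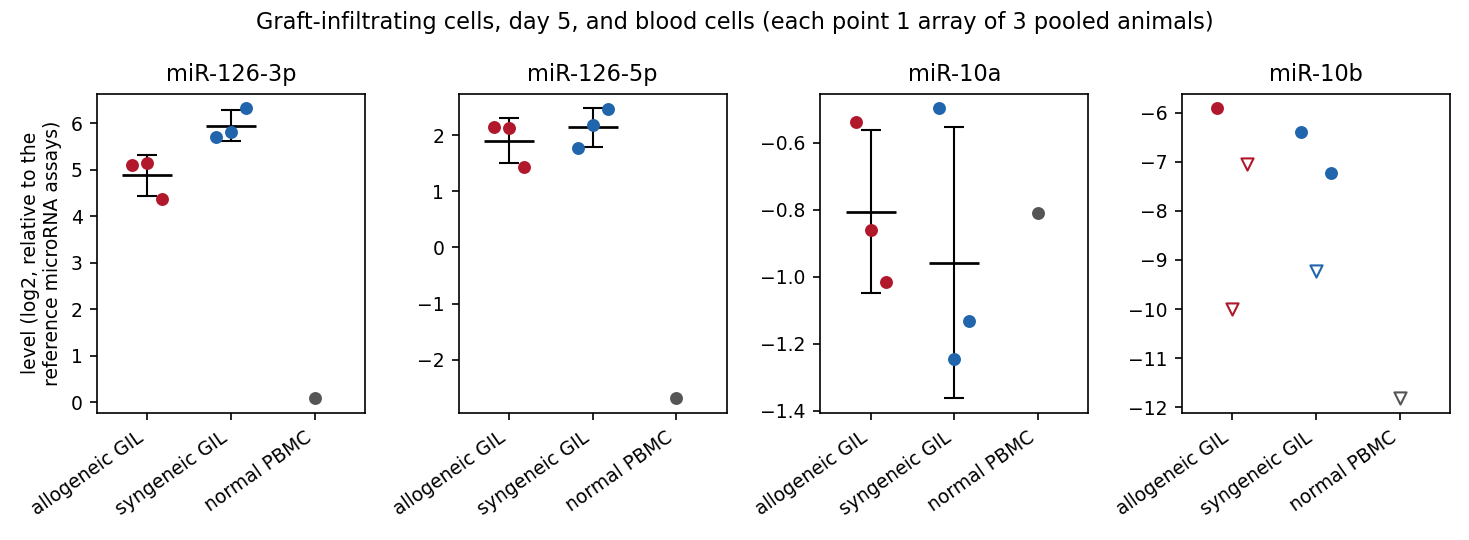
Level of each assay (log2, relative to the mean of the reference microRNA assays) in allogeneic GIL, syngeneic GIL and normal PBMC, from left to right. Points are arrays, bars give the mean and SD of 3 pools, and open triangles are arrays where miR-10b was undetermined, drawn at the limit of Ct 35, so their true level is below the mark. Both miR-126 arms lie above PBMC in all 6 GIL pools, and miR-10a lies at a like level in the 3 groups.

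Both arms were higher in infiltrating cells than in blood cells. miR-126-3p was 27.7-fold higher in allogeneic GIL than in PBMC (4.79 ± 0.46 SE, adjusted p = 5.59e-04) and miR-126-5p 24.1-fold higher (4.59 ± 0.45, adjusted p = 5.77e-04), where 22.2% of 212 assays rose. In syngeneic GIL against PBMC, miR-126-3p was 58.0-fold higher (5.86 ± 0.47, adjusted p = 2.59e-04) and miR-126-5p 28.4-fold higher (4.83 ± 0.46, adjusted p = 5.05e-04), where 28.8% of 229 assays rose. These 4 differences held in all 17 alternatives run for each, between 3.73 and 6.84, although PBMC was 1 array with a run day of its own. Cardiomyocyte, smooth muscle and fibroblast markers stood higher in the same comparisons. Of 6 cardiomyocyte microRNAs, 3 passed the detection filter, and these rose in both GIL groups. miR-208, miR-208b and miR-499 were not tested. Relative to PBMC, miR-1 and miR-133a were higher by 9.24 and 9.22 log2 units in allogeneic GIL, and by 7.58 and 7.55 in syngeneic GIL. The smooth muscle list (2 of 2) and the fibroblast list (3 of 3) also rose in both GIL groups, with miR-133b, miR-199a-5p and miR-214 undetermined in PBMC. The summed level of the cardiomyocyte list was 5.18 to 6.45 in allogeneic GIL, 3.78 to 4.47 in syngeneic GIL and -3.69 in PBMC. That of the smooth muscle list was 5.02 to 5.80 in allogeneic GIL, 4.75 to 6.17 in syngeneic GIL and -2.46 in PBMC. That of the fibroblast list was 1.91 to 3.13 in allogeneic GIL, 4.43 to 4.71 in syngeneic GIL and -4.87 in PBMC. The pan-leukocyte list (miR-142-3p and miR-142-5p) was lower than in PBMC, at 4.98 to 5.57 in allogeneic GIL, 3.18 to 4.15 in syngeneic GIL and 7.05 in PBMC. Other endothelial or angiogenic microRNAs, a list of 16 described below, mostly went the other way. Relative to PBMC, 3 rose and 9 fell in each GIL group, with medians of -1.57 (allogeneic) and -1.76 (syngeneic). Over all assays 76 of 212 and 73 of 229 fell, with medians of -1.19 and -0.77. The summed level of this list was 6.67 to 6.98 in allogeneic GIL, 6.53 to 6.79 in syngeneic GIL and 8.58 in PBMC. The part of graft tissue in the miR-126 level of GIL was not tested.

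**Figure D3:**
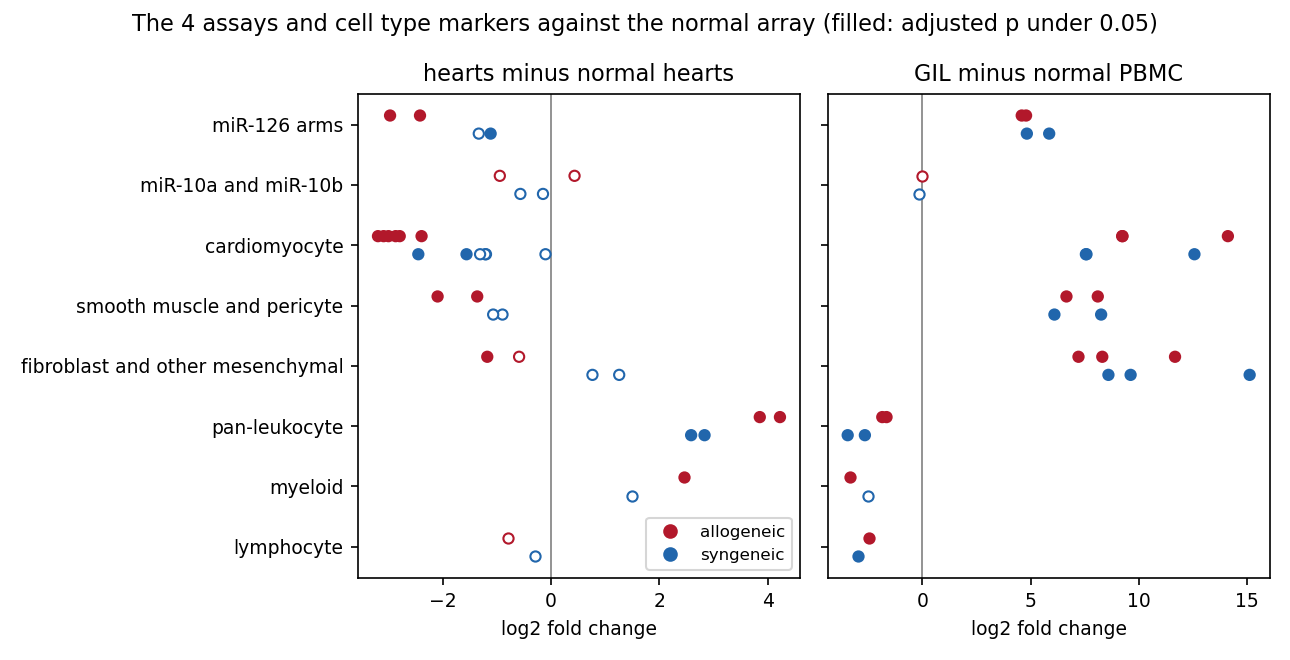
Log2 fold change of the 4 assays and of cell type marker lists relative to the normal heart (left panel, hearts) or PBMC (right panel, GIL). Each point is 1 assay, red for allogeneic and blue for syngeneic, filled where the adjusted p was under 0.05, and assays undetermined in PBMC stand at a lower bound. The miR-126 arms lie on the same side of 0 as the cardiomyocyte and smooth muscle markers in both panels, below 0 in hearts and above 0 in GIL. Of 6 cardiomyocyte markers, only the 3 tested are drawn in the right panel.

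Between the grafts, tissue markers in GIL moved in both directions. In allogeneic GIL relative to syngeneic GIL, the cardiomyocyte microRNAs miR-133a (1.67 ± 0.40 SE, limma adjusted p = 0.0247) and miR-133b (1.54, adjusted p = 0.0478) rose. miR-1 was at 1.66 (adjusted p = 0.0787). Of the smooth muscle pair, miR-145 was at -0.15 (adjusted p = 0.791) and miR-143 at 0.56 (adjusted p = 0.381). The fibroblast markers miR-214 (-3.45 ± 0.46, adjusted p = 0.00713), miR-199a-3p (-1.38, adjusted p = 0.0339) and miR-199a-5p (-1.31, adjusted p = 0.0198) fell. miR-142-3p rose (1.60 ± 0.34, adjusted p = 0.0168), and miR-142-5p was at 1.00 (adjusted p = 0.0916). The allogeneic effect in GIL minus that in hearts was 1.07 ± 0.35 for miR-126-5p (adjusted p = 0.0423, interaction contrast, 95% interval 0.30 to 1.84), in a comparison where 8.08% of 198 assays were called in that direction. This call held in 6 of 22 alternatives and was lost in 10 of the 12 that left out 1 pool, with values from 0.88 to 1.40. For miR-126-3p the difference of effects was 0.57 ± 0.42 (95% interval -0.36 to 1.5, adjusted p = 0.321) and for miR-10a -0.85 ± 0.42 (95% interval -1.77 to 0.076, adjusted p = 0.152).

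The difference between the arms within an array needs no reference assay and is free of the scaling. In GIL, miR-126-3p minus miR-126-5p was 2.95, 3.03 and 2.94 cycles in allogeneic pools, 3.92, 3.62 and 3.87 in syngeneic pools and 2.77 in PBMC. The allogeneic pools lay close together and below every syngeneic pool, with PBMC below both. The mean was 2.97 ± 0.050 in allogeneic and 3.80 ± 0.16 in syngeneic GIL (SD, n = 3 each), a change of -0.83 ± 0.098 (SE), which is a 1.78-fold lower ratio of 3p to 5p arm. The exact two-sided permutation p was 0.1, the smallest that 3 against 3 pools allow, and 0.1 after adjustment over the 3 such tests made. The comparison took mouse microRNAs with assays named 3p and 5p, both detected in every GIL pool. Among these 7, miR-126 was the only one whose groups did not overlap (14.3%). miR-125a, with overlapping groups, had a change of 0.93. Of 201 single assays tested in GIL, 57.7% had groups that did not overlap. Leaving out any 1 pool kept the change between -0.92 and -0.77. Run day cannot be told apart from group for this change either.

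In hearts the same arm difference was 3.00, 2.41 and 2.91 in allogeneic pools, 3.00, 3.01 and 3.32 in syngeneic pools and 3.33 in the normal heart. The highest allogeneic and the lowest syngeneic pool were equal to 2 decimals. The change of -0.33 ± 0.21 (SE, exact permutation p = 0.1) was 12th in size of 17 microRNAs chosen in the same way. Both their arms were detected in every allogeneic and syngeneic heart pool, and 41.2% of the 17 had groups that did not overlap. Without allogeneic pool 2 the miR-126 change was -0.15.

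**Figure D4:**
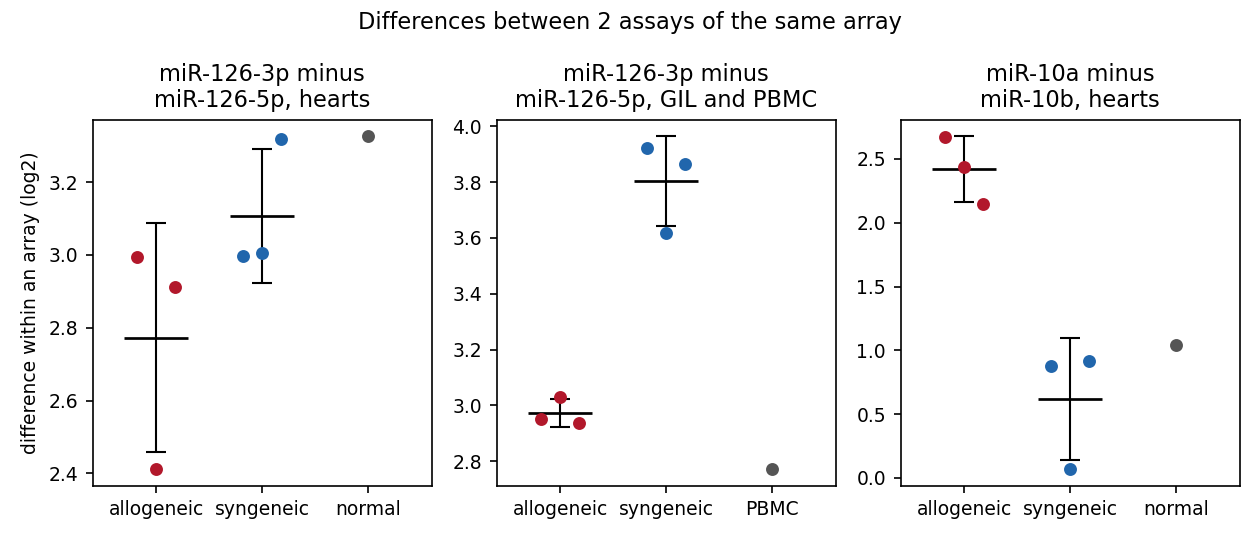
Difference in level between 2 assays of the same array (log2), for miR-126-3p minus miR-126-5p in hearts (left) and in GIL and PBMC (middle) and for miR-10a minus miR-10b in hearts (right). Each point is 1 array and bars give the mean and SD of 3 pools. The arm difference separates the GIL groups (2.94 to 3.03 in allogeneic against 3.62 to 3.92 in syngeneic), and miR-10a minus miR-10b separates the heart groups (2.15 to 2.67 in allogeneic against 0.070 to 0.92 in syngeneic).

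The 2 paralogues with a shared seed had fold changes of opposite sign in hearts, and only that of miR-10a was called. The miR-10a level was 1.68, 1.06 and 1.27 in allogeneic hearts, 0.56, 0.58 and -0.13 in syngeneic hearts and 0.90 in the normal heart. Every allogeneic pool was above every syngeneic pool, with the normal heart between. The mean was 1.34 ± 0.31 in allogeneic and 0.34 ± 0.41 in syngeneic hearts (SD, n = 3 each), a 2.00-fold rise (1.00 ± 0.30 SE, adjusted p = 0.0431). The call depended on single arrays. It held without allogeneic pool 2 (1.15, adjusted p = 0.0406) and was lost without any other pool. The value was 0.83 without allogeneic pool 1 (adjusted p = 0.122) and 1.06 without allogeneic pool 3 (adjusted p = 0.0784). It was 1.11 without syngeneic pool 1 (adjusted p = 0.0667), 1.12 without syngeneic pool 2 (adjusted p = 0.0831) and 0.77 without syngeneic pool 3 (adjusted p = 0.121). The miR-10a well of allogeneic pool 1 was marked by the instrument software, and without marked wells the value was 0.85 (adjusted p = 0.0857). Within a run day the difference was 1.12 for pool 1 of both groups and 0.69 for allogeneic pool 3 minus syngeneic pool 2.

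The miR-10b level was -0.99, -1.38 and -0.88 in allogeneic hearts, -0.31, 0.51 and -1.05 in syngeneic hearts and -0.14 in the normal heart. The syngeneic pools were widely spread, and 1 of them lay among the allogeneic pools. The log2 fold change was -0.80 ± 0.42 (95% interval -1.79 to 0.20, adjusted p = 0.183), and within a run day the differences were -0.68 and -1.39. Against the normal heart, neither paralogue passed the test. In allogeneic hearts miR-10a was at 0.44 (adjusted p = 0.396) and miR-10b at -0.94 (adjusted p = 0.202). In syngeneic hearts miR-10a was at -0.56 (adjusted p = 0.352) and miR-10b at -0.15 (adjusted p = 0.881).

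Set against each other within an array, miR-10a minus miR-10b was 2.67, 2.44 and 2.15 in allogeneic hearts, 0.88, 0.070 and 0.92 in syngeneic hearts and 1.04 in the normal heart. The allogeneic pools stood above the syngeneic pools and the normal heart, with no overlap. Allogeneic and syngeneic hearts also did not overlap for 54.2% of 238 single assays and for 41.2% of 17 arm differences. The share among other pairs of assays was not computed. The mean was 2.42 ± 0.26 in allogeneic and 0.62 ± 0.48 in syngeneic hearts (SD, n = 3 each), a change of 1.80 ± 0.31 (SE) or 3.47-fold in the ratio of miR-10a to miR-10b. The exact permutation p was 0.1, the smallest possible, and the change stayed between 1.52 and 1.95 when any 1 pool was left out and at 1.67 without the marked well.

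In the infiltrating cells miR-10a did not separate the groups, and miR-10b was detected in only some pools. The miR-10a level was -0.54, -0.86 and -1.02 in allogeneic GIL, -0.50, -1.25 and -1.13 in syngeneic GIL and -0.81 in PBMC. The log2 fold change between grafts was 0.15 ± 0.29 (95% interval -0.57 to 0.88, adjusted p = 0.691). Against PBMC it was 0.0046 ± 0.42 in allogeneic GIL (95% interval -1.04 to 1.05, adjusted p = 0.992) and -0.15 ± 0.43 in syngeneic GIL (95% interval -1.22 to 0.92, adjusted p = 0.794). miR-10b came up in 1 of 3 allogeneic GIL pools, at Ct 30.0, and in 2 of 3 syngeneic GIL pools, at Ct 31.1 and 32.3. It was undetermined in PBMC. No group detected it on every array, so the main fits did not test it in that table.

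**Figure D5:**
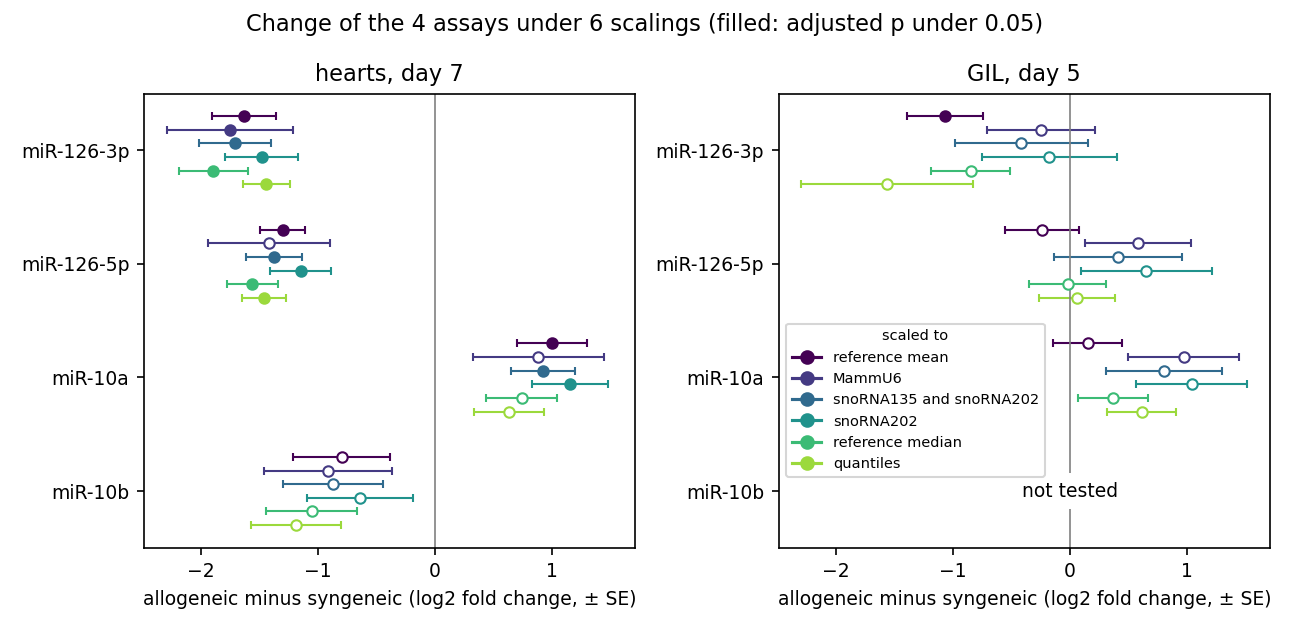
Log2 fold change, allogeneic minus syngeneic, of each assay in hearts (left) and GIL (right) under the mean of the reference microRNA assays and 5 other scalings, with bars of 1 SE. Filled points have an adjusted p under 0.05. In hearts the miR-126 arms stay below 0 and miR-10a above 0 under all 6, whereas in GIL the miR-126-3p call is made under 1 scaling and miR-126-5p changes sign.

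The assays with the most similar pattern over the 7 arrays of a table were found by the root mean square distance of levels centred on their mean, so the distances include the group differences. The other members are given apart and were left out of the 3 nearest. In hearts, the non-member assays nearest to miR-126-3p were miR-133a (0.205), miR-1 (0.305) and the rat-named miR-1 assay (0.325), against a median distance of 1.16 to all 210 assays compared. Its own 5p arm, at 0.283, was nearer than miR-1. Those nearest to miR-126-5p were miR-30e (0.177), miR-145 (0.216) and miR-139-5p (0.247). miR-10a was nearest to miR-350 (0.228), miR-674 (0.305) and miR-200c (0.316), and stood 0.897 from miR-10b. miR-10b was nearest to miR-450a-5p (0.4), miR-150 (0.444) and the rat-named miR-190b assay (0.446). In the leukocyte table, with 137 assays, the arms of miR-126 stood 0.45 apart. Of the non-member assays, miR-218 (0.332) was nearer to miR-126-3p than its 5p arm was, followed after that arm by miR-34b-3p (0.577) and miR-184 (0.61). For miR-126-5p the 3p arm was the nearest assay, followed by miR-184 (0.612), miR-218 (0.627) and miR-497 (0.767). miR-10a was nearest to miR-210 (0.158), miR-139-5p (0.25) and miR-27a (0.323).

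Scaled to the 133 microRNA assays detected on all 14 arrays, a reference added after the data were seen, the levels could be set in 1 order, although the tables were run separately. For miR-126-3p the order from the highest was normal heart (8.35), syngeneic heart (7.02 ± 0.26), syngeneic GIL (5.90 ± 0.33), allogeneic heart (5.24 ± 0.35), allogeneic GIL (4.85 ± 0.43) and PBMC (0.048), as means ± SD of 3 pools or as 1 array. Allogeneic heart and allogeneic GIL overlapped, and the other neighbours did not. For miR-126-5p the order was normal heart (5.03), syngeneic heart (3.91 ± 0.075), allogeneic heart (2.47 ± 0.046), syngeneic GIL (2.10 ± 0.34), allogeneic GIL (1.88 ± 0.40) and PBMC (-2.72), with only the GIL groups overlapping. The lowest allogeneic heart pool (2.422) and the highest syngeneic GIL pool (2.407) were almost level. For miR-10a all neighbours overlapped, and the group means lay between -1.20 in syngeneic hearts and -0.34 in allogeneic hearts. For miR-10b the normal (-1.67), syngeneic (-1.83 ± 0.80) and allogeneic hearts (-2.76 ± 0.31) overlapped with their neighbours and lay above every GIL pool.

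Other endothelial or angiogenic microRNAs were called in both directions. Of 16 on the card, 15 were tested in hearts, where 4 rose and 1 fell in allogeneic relative to syngeneic grafts, with a median of 0.45. Over all 238 assays 17.2% rose and 15.1% fell, with a median of 0.022. Those that rose were the hypoxia-induced miR-210 (2.55 ± 0.31 SE, adjusted p = 0.00322), miR-221 (1.15), miR-222 (1.22) and miR-18a of the miR-17-92 cluster (1.28), and miR-322 fell (-1.12 ± 0.24, adjusted p = 0.0158). In GIL, 4 of 15 rose, namely miR-18a (2.28 ± 0.33, adjusted p = 0.00713), miR-92a (0.93), miR-20a (0.89) and miR-27b (0.78), while miR-218, an intronic microRNA of the Slit genes, fell (-1.54 ± 0.28, adjusted p = 0.0105). The median there was 0.16, and over all 201 assays 12.4% rose and 23.9% fell, with a median of -0.24.

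Of 7 relatives of miR-10 and Hox cluster microRNAs on the card, 5 were tested in each table. In hearts the rat-named miR-196c assay, of the Hox cluster family miR-196, was called higher (1.91 ± 0.58, adjusted p = 0.0452), and miR-196b was at 1.42 (adjusted p = 0.0551). The miR-99 family members with the seed ACCCGUA did not pass the test in hearts, with miR-99a at -0.046, miR-100 at 0.0087 and miR-99b at 0.32. In GIL miR-99b fell (-1.55 ± 0.29, adjusted p = 0.0112), and miR-99a (-0.73) and miR-100 (-0.75) did not pass (adjusted p = 0.147 and 0.159).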

How the data were processed

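MicroRNA was measured with TaqMan rodent cards. Per the labels' protocols, equal amounts of RNA (100 ng) from 3 animals were combined into a pool of 300 ng, reverse transcribed and preamplified with Megaplex primers, and run on a 7900HT instrument. The deposited Ct values, 1 per well on an inverted log2 scale, were exported by the authors from SDS software, per the file headers. The deposited delta Ct (log2) was scaled by the authors to snoRNA202, and the relative quantity that the authors deposited is a ratio, with the normal array as 1. Baseline and threshold settings were not given in the sources used here.

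Levels were recomputed from Ct, with undetermined wells or Ct from 35 on set to 35, relative to the mean of those microRNA assays that every array of a table detected. In 1 well the plate name matched no array, and it was left out. Assays detected on every array of at least 1 compared group were tested by fitting the 3 groups of a table with lmFit and eBayes (limma 3.58.1, R 4.3.3), with Benjamini-Hochberg adjustment over all assays tested and a call at an adjusted p under 0.05. For the lone normal array, the spread of the transplant groups was assumed. Steps were tested on simulated data. Within-array differences were tested by exact permutation. The number of arrays limits the precision.

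The members, marker lists, tests and rule for named assays (the 4 members, the 3 nearest patterns of each, called members of the lists and marker microRNAs) were chosen with earlier results of these data known. Alternatives covered scaling, detection limit, filter, marked wells, replicate number, run day, the transplant groups alone and single pools. The same replicate number was not treated as a pair in the main fits. Correlations of deviations between pools of the same number were -0.043, -0.292 and 0.119 in hearts and 0.19, 0.229 and -0.157 in GIL. Between pools of unlike number they ran from -0.365 to 0.355 in hearts and from -0.302 to 0.0926 in GIL. With so few pools, these values cannot decide whether samples were paired.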

Additional observations from a re-analysis of the deposited data

Results flagged for a closer look

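The allogeneic effect on miR-126-5p in GIL minus that in hearts was 1.07 on the log2 scale (limma interaction contrast, adjusted p = 0.0423). It stood out because the effects of the same contrast in both compartments differed by a test of the difference itself. The call held in 6 of 22 alternatives, among them 2 of 5 other scalings. The effect was -0.24 in GIL, where its sign turned in 6 of 19 alternatives, and -1.30 in hearts. In GIL, run day cannot be told apart from group. Hearts were taken at day 7 and GIL at day 5, and the tables have separate reference assays, so compartment, day and table cannot be told apart.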

How the results depend on the processing

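In hearts the miR-126-3p call held in 19 of 20 alternatives and the miR-126-5p call in 18. The miR-10a call held in 8 of 20, and miR-10b was called in none of 20. These 20 included a fit of the transplant groups alone, which repeats the main values by construction. They also included the random run day block, which gave -1.64, -1.30 and 1.00 for miR-126-3p, miR-126-5p and miR-10a, near the main values. With MammU6, 34 assays were called in hearts, against 77 with the reference mean. It gave 58 calls for allogeneic and 24 for syngeneic against normal heart, and 15 for the interaction. The same scaling gave -1.42 for miR-126-5p and 0.88 for miR-10a in hearts, -0.25 for miR-126-3p and 0.58 for miR-126-5p in GIL, 0.20 for miR-10b in syngeneic against normal heart, -0.27 for miR-10a in allogeneic GIL against PBMC, and 0.090 for the miR-10a interaction. With snoRNA135 and snoRNA202, 31 assays were called in GIL, against 73 with the reference mean. There were 62 calls for allogeneic GIL against PBMC and 27 for the interaction. This scaling gave -0.42 for miR-126-3p and 0.41 for miR-126-5p in GIL and 0.19 for miR-10a in syngeneic GIL against PBMC. With snoRNA202 the same counts were 48, 63 and 27. That scaling gave -0.18 for miR-126-3p and 0.65 for miR-126-5p in GIL. It gave 0.29 for miR-10b in syngeneic against normal heart, and 0.32 for miR-10a in syngeneic GIL against PBMC. The reference median gave 0.74 for miR-10a in hearts, -0.85 for miR-126-3p in GIL and 0.090 for miR-10a in syngeneic GIL against PBMC. Quantile scaling gave 0.63 for miR-10a in hearts, -1.56 for miR-126-3p and 0.062 for miR-126-5p in GIL, 0.13 for miR-10b in syngeneic against normal heart and -0.12 for the miR-126-3p interaction. Of the GIL calls, 34.2% were rises with the reference mean, against 63% with MammU6, 67.7% with snoRNA135 and snoRNA202, 79.2% with snoRNA202, 48% with the median and 52.3% with quantiles. In hearts the share was 53.2%, against 30% with the median and 64.6% with snoRNA202.

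A detection limit of Ct 32 gave 0.20 for miR-10a in syngeneic GIL against PBMC, and Ct 38 gave -1.03 for miR-126-3p in GIL and -0.29 for miR-10a in allogeneic GIL against PBMC. With no filter on detection, 42 assays were called in hearts, 35 in GIL and 31 in the interaction, of 375 tested, and the adjusted p was 0.101 for miR-10a in hearts (1.00) and 0.196 for miR-126-3p in GIL (-1.07), with more assays tested. Without marked wells miR-10a was 0.85 in hearts and -0.025 in allogeneic GIL against PBMC. With the replicate block 46 assays were called in hearts, miR-10a stood at 1.00 (adjusted p = 0.0826) and miR-126-3p in GIL at -1.07 (adjusted p = 0.126), and the other calls of members in these comparisons did not change. With run day as a fixed block 2 were called in hearts, with -1.29, -1.24 and 0.90 for miR-126-3p, miR-126-5p and miR-10a, and 1 residual degree of freedom. Leaving out 1 pool gave 42 to 81 calls in hearts, 40 to 73 in GIL, 0.77 to 1.15 for miR-10a in hearts, -1.20 to -0.72, -0.42 to 0.092 and -0.028 to 0.38 for miR-126-3p, miR-126-5p and miR-10a in GIL, -0.54 to 0.26 for miR-10b in syngeneic against normal heart, and -0.13 to 0.23 and -0.38 to 0.029 for miR-10a in allogeneic and syngeneic GIL against PBMC. Except where stated, the cause was not tested. In GIL, miR-10b was not detected on every array of any group, so the main fits did not test it. Its value in the fit with no filter on detection is not given.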
